A study of Homo sapiens with 3 samples.

Results

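The genes of the mitochondrial respiratory chain and ATP synthase were examined in 3 RNA-seq libraries of MIAPaCa-2 cells, an established line from a human carcinoma of the pancreas. Members were found by symbol: the subunit genes of mitochondrial DNA (MT-ND, MT-CO, MT-CYB and MT-ATP) and the nuclear gene families NDUFA, NDUFB, NDUFC, NDUFS, NDUFV, SDH, UQCR, COX and ATP5, with CYC1. Of 14949 listed genes, 98 symbols matched. Of these, 3 pseudogenes, 2 antisense RNAs and 2 read-through genes were left out, which left 91 members, 13 of them mitochondrial and 78 nuclear. Complex I had 7 mitochondrial and 37 nuclear members, complex II had 4 nuclear members only, complex III had 1 and 10, complex IV had 3 and 10, and complex V, the ATP synthase, had 2 and 17.

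The first library came from untreated cells carrying a control short hairpin RNA (sh-CTL). The second (sh-METTL3) came from untreated cells with a hairpin that targets METTL3, which encodes the methyltransferase that writes N6-methyladenosine into RNA. The third came from the control hairpin cells given 80 nM of NMS-P937, an inhibitor of the mitotic kinase PLK1, for 24 h (sh-CTL + PLK1i, called the PLK1i library from here on). All 3 therefore carried a hairpin and were grown in the same serum-containing medium. Whether the untreated cells received vehicle was not stated in the labels. The hairpin line was not described in the labels as a clone or as a pool, and the knockdown rests on a single hairpin label. The study set METTL3 loss beside PLK1 inhibition, and the question asked here was how the subunit genes of each genome differed from sh-CTL in the other two libraries. Each group held 1 library. No test between conditions was possible, and every interval below is a 95% exact counting interval (Clopper-Pearson), of a share of reads in 1 library or of a change between 2 libraries, not between conditions.

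The respiratory chain passes electrons from NADH (complex I) or succinate (complex II) to ubiquinone, then through complex III and cytochrome c to oxygen at complex IV. Complexes I, III and IV pump protons, and complex V uses the returning protons to make ATP. Mitochondrial DNA encodes hydrophobic core subunits of complexes I, III, IV and V and is read as long transcripts that are cut at the flanking tRNAs, whereas each nuclear gene has its own promoter and its protein is imported.

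Counted over listed genes, sh-CTL had 37449329 reads, sh-METTL3 had 46944898 and the PLK1i library had 47727518. A normalized count is the number of reads on the deposited scale, which levels out depth. METTL3 had normalized counts of 3939, 1651 and 3888 in the 3 libraries in this order, so the library labelled sh-METTL3 held the lowest level, with a log2 change of -1.25 (interval -1.34 to -1.17). PLK1 had normalized counts of 8058, 5226 and 8515. The epithelial keratin genes KRT8, KRT18 and KRT19 were present in every library. In the same order, KRT8 had 82612, 124197 and 97483 reads, KRT18 43957, 66905 and 52213, and KRT19 3361, 5710 and 4095. The epithelial markers EPCAM and CDH1 were looked up and were not among the listed genes. The same held for the fibroblast markers DCN and LUM, the immune markers PTPRC and CD3E, and the endothelial and acinar markers looked up. VIM, a mesenchymal gene, had 209893, 199813 and 267672 reads. Of the fibroblast markers, COL1A2 had 44101, 44201 and 44493 reads and COL1A1 34, 6 and 36. CD68, a macrophage marker that other cells also express, had 1505, 3499 and 2875 reads. These marker reads were not scaled for depth, which was lowest in sh-CTL, so near-equal reads do not mean an equal level. The part of these differences in the results below was not tested. In bulk RNA a different mix of cells and a different amount of RNA per cell cannot be told apart.

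Sequences at the gene ends are shown first, because the 13 mitochondrial genes lie so close together that the last codon of several is finished only by the poly(A) tail. The last 15 bases of 6 genes are given from the GRCh37 mitochondrial sequence, 5′ to 3′ on the coding strand, with the last codon or part codon in capitals.
MT-ND1: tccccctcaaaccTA
MT-ND4: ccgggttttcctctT
MT-CYB: tactcaaatgggccT
MT-CO1: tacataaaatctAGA
MT-ND5: ctcctaatcacaTAA
MT-ND6: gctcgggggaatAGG
MT-ND1, chrM:3307-4262, ends in TA, and MT-ND4, chrM:10760-12137, and MT-CYB, chrM:14747-15887, end in a single T. The same holds for MT-ND2, MT-CO3 and MT-ND3, so that 6 of the 13 genes end in part of a stop codon and 7 in a whole codon. MT-CO1, chrM:5904-7445, ends in AGA, and MT-ND5, chrM:12337-14148, ends in TAA. MT-ND6, chrM:14149-14673, lies on the minus strand and ends in AGG. It is the only mitochondrial member on that strand, and the other 12 are on the plus strand. Neighbouring genes also overlap. MT-ATP8 and MT-ATP6 share 46 bases, which is 22.2% of MT-ATP8 and 6.75% of MT-ATP6. MT-ND4L and MT-ND4 share the 7 bases ATGCTAA, and MT-ATP6 and MT-CO3 share 1 base. Reads inside an overlap cannot be assigned to a single gene, so the values of these pairs are not separate measurements.

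Promoter sequences of the nuclear members follow, because binding sites for NRF1, ETS factors and YY1 are the known common elements of this gene family. RefSeq (GRCh38.p14) promoter sequences, covering 250 bases before to 50 after the start, were matched to 63 of the 78 nuclear members. Windows of 30 bases before the start are shown on the strand of the gene, with the motif in capitals, for members that the results return to.
NDUFS7 NRF1: gttccggtttcCGCATGCGctccgagccgc
SDHD NRF1: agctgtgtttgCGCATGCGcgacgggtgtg
ATP5MC2 NRF1: ggcccgggtcaCGCATGCGctgagccttcc
NDUFA13 ETS: taagtcacttccgcccgggaCCGGAAGtgt
UQCR11 ETS: tccaaccctcgCCGGAAGttactgtaagtg
ATP5PF YY1: taggcgaagaaAAGATGGCggaggctgtgc
The windows are, in this order, chr19:1383822-1383851, chr11:112086753-112086782, chr12:53676106-53676135 (minus strand), chr19:19516195-19516224, chr19:1605561-1605590 (minus strand) and chr21:25735093-25735122 (minus strand). The NRF1 letters CGCATGCG, which read the same on both strands, were in 10 of the 63 promoters (15.9%), against 4.64% of the promoters of abundant genes (listed genes whose mean normalized count over the 3 libraries was 500 or more) and 2.19% of all promoters. The ETS letters CCGGAAG or CTTCCGG were in 19 (30.2%), against 22.8% and 10.7%. The YY1 letters AAGATGGC or GCCATCTT were in 11 (17.5%), against 6.71% and 3.03%. Among the members, the YY1 match printed for ATP5PF was the only one wholly before the start, and the others reached past it. In all, 33 of the 63 promoters held at least one of the 3 motifs. The share of other promoters with any of them was not computed, so nothing particular to the members is read from this count. A match of letters is a description and not a bound site.

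Mitochondrial transcripts were far more abundant than their nuclear partners in every library. The 13 mitochondrial members took 4.48% of the sh-CTL reads (interval 4.476 to 4.489), 4.53% of the sh-METTL3 reads (4.529 to 4.541) and 5.06% of the PLK1i reads (5.058 to 5.07). The 78 nuclear members together took 0.832%, 0.875% and 0.791%. The ratio of mitochondrial to nuclear member reads was therefore 5.39, 5.18 and 6.4 in the 3 libraries in the order above. The highest ratio was in the inhibitor library and the lowest in the knockdown library.

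Per kilobase of annotated transcript, the median normalized count of complex I genes was 82990 for mitochondrial and 2918 for nuclear members in sh-CTL, a ratio of 28.4. For complex III the ratio of medians in sh-CTL was 28.6, for complex V 37.3 and for complex IV 68.1. In sh-METTL3 these ratios were 26.7 for complex I, 25.6 for complex III, 32.8 for complex V and 54 for complex IV. In the PLK1i library they were 33, 34.2, 44.6 and 73.4 in the same order. In all 4 complexes with members in both genomes, the ratio was lowest in sh-METTL3 and highest in the PLK1i library. Such a ratio rests on the genes at the medians. For mitochondrial complex IV this was MT-CO2, with a log2 change of -0.20 in sh-METTL3, beside 0.06 for MT-CO1 and -0.01 for MT-CO3. For complex I the median log2 changes of the 2 genomes in sh-METTL3 were alike, 0.0610 for mitochondrial and 0.0615 for nuclear members. Complex II, with no mitochondrial gene, had a nuclear median per kilobase of 4269, 4566 and 4062.

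**Figure D1:**
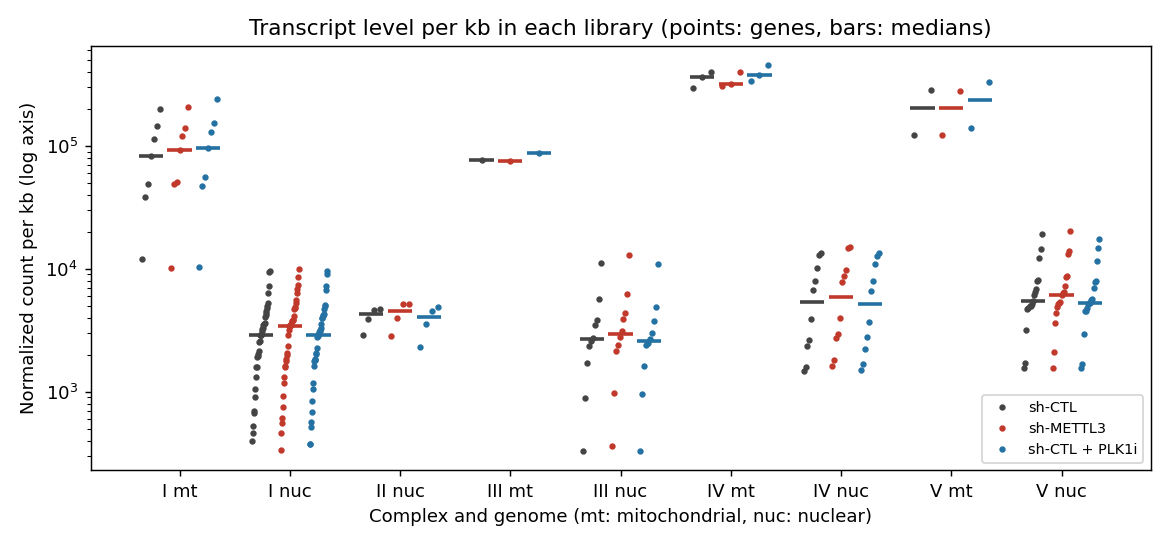
Normalized count per kilobase (log axis) of each member by complex and genome, in sh-CTL (grey), sh-METTL3 (red) and sh-CTL + PLK1i (blue), each 1 library; points are genes and bars are medians. Mitochondrial medians lie between 75241 and 380282 and nuclear medians between 2574 and 6153, so the medians of the 2 genomes are apart in every library. MT-ND6, at 10236 to 12138, lies under a few nuclear genes such as ATP5F1B.

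Among mitochondrial genes, the order of levels per kilobase was identical in the 3 libraries. In sh-CTL it ran from MT-CO3 (398730), MT-CO2 (363024) and MT-CO1 (297182), the catalytic core of cytochrome c oxidase, through MT-ATP6 (284535), MT-ND4 (198944) and MT-ND2 (146304). It went on with MT-ATP8 (123211), MT-ND4L (113229), MT-ND1 (82990), MT-CYB (76250) and MT-ND3 (48629), and ended with MT-ND5 (38231) and MT-ND6 (12138). With 1 library a group there is no replicate spread to say which neighbours in this order differ. Some neighbours were close, such as MT-ATP8 and MT-ND4L at 122404 and 120971, and MT-ND3 and MT-ND5 at 50730 and 49394, in sh-METTL3. MT-ND6 stood lowest, with MT-CO2 29.9 times, 30.9 times and 37 times its level in the 3 libraries. MT-ND6 RNA is known to carry little or no poly(A) tail, and the library kit selected poly(A) RNA. The part of selection in its low level was not tested.

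Among nuclear members, ATP5F1B, the catalytic beta subunit of ATP synthase, had the highest level per kilobase in each library, at 19114, 20249 and 17616. The lowest was UQCRB, a small subunit of complex III, at 330 in sh-CTL and 332 in the PLK1i library, and NDUFA5, a small subunit of complex I, at 338 in sh-METTL3. Both have a long annotated transcript for a short coding sequence, 8459 bases for UQCRB and 5496 for NDUFA5, which lowers a value per kilobase. All values and medians per kilobase depend in this way on the annotated transcript. Its part in the rank of these genes was not tested. Nuclear members were short genes in general, with a median transcript length of 781 bases against 3405 for abundant genes, and 45 of the 78 were under 1 kb. The 3 genes ATP5MC1, ATP5MC2 and ATP5MC3 encode the same mature c subunit of the proton-driven ring. ATP5MC3 gave 62.3%, 59.2% and 63.7% of their summed reads, ATP5MC1 20.1%, 21.8% and 18.2%, and ATP5MC2 17.6%, 18.9% and 18.1%. UQCRHL, a close copy of the complex III hinge gene UQCRH, had the fewest reads of any member, at 212, 291 and 286, against 5151, 7519 and 6372 for UQCRH, and the split of reads between these copies is uncertain.

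In sh-METTL3, changes against sh-CTL were small and mixed for mitochondrial genes and mostly upward for nuclear ones. Changes are given as the difference of log2(normalized count + 1). The median was -0.01 over the 13 mitochondrial genes, from -0.25 (MT-ND6) to 0.37 (MT-ND5), and 0.10 over the 78 nuclear genes, from -0.31 (NDUFA2) to 0.64 (NDUFA13). Over all listed genes the median was 0.00, and over abundant genes, to which 90 of the 91 members belonged, it was -0.02. Abundant protein-coding genes with a transcript under 1 kb, 479 in number, had a median of 0.04.

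At a change of at least 1.2-fold (0.263 on the log2 scale), 7 of the 91 members were higher in sh-METTL3 (7.69%) and 2 lower (2.2%). Among all listed genes 19.1% were higher and 18.2% lower by this measure, and among abundant genes 9.72% and 13.3%. The share of members that were higher was thus near or under the background, and the share lower was under it. No member differed by 2-fold, a size reached by 6.37% of all genes. Counting intervals lay above 0 for 43 nuclear members (55.1%), below 0 for 9 and across 0 for 26, against 29.9% above and 35.4% below among abundant genes. Of the 13 mitochondrial members, 6 lay above 0 and 5 below. These intervals hold counting error only, and the deep mitochondrial counts make them narrow.

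With the inhibitor, mitochondrial genes were mostly above their sh-CTL level and nuclear genes mostly at or slightly under it. The median change against sh-CTL was 0.20 for mitochondrial members, from -0.24 (MT-ND6) to 0.30 (MT-ND5), and -0.05 for nuclear members, from -0.33 (NDUFS7) to 0.18 (NDUFA12). The median was 0.00 over all genes, 0.01 over abundant genes and 0.02 over the short coding genes. At least 1.2-fold, 2 members were higher (2.2%) and 3 lower (3.3%), against 13.2% and 14.4% of all genes and 6.2% and 6.65% of abundant genes. None reached 2-fold, against 2.52% of all genes. Counting intervals lay above 0 for 12 of the 13 mitochondrial members and below 0 for 1. Among nuclear members 8 lay above 0, 29 below (37.2%) and 41 across, against a background of 29.9% above and 27.8% below. The comparisons with sh-CTL share that library, so their values are set side by side without a measure of likeness.

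**Figure D2:**
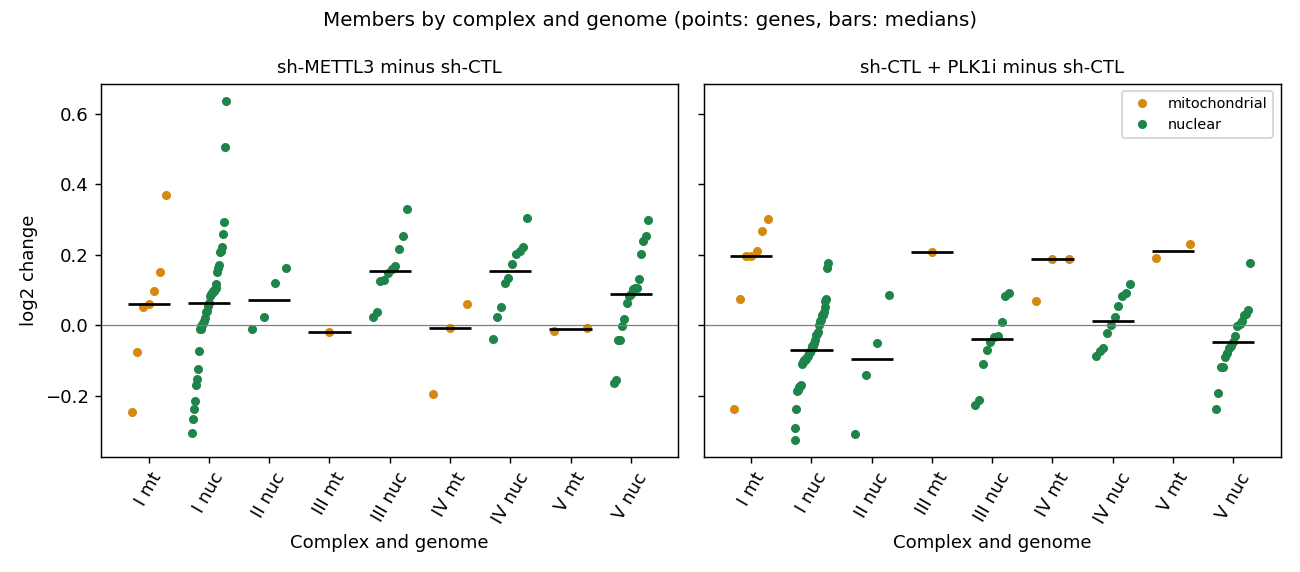
Log2 change against sh-CTL of every member by complex and genome, for sh-METTL3 (left) and sh-CTL + PLK1i (right), 1 library per group; points are genes and bars are medians. In the right panel the mitochondrial medians lie between 0.19 and 0.21 and the nuclear medians between -0.10 and 0.01.

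By complex, the mitochondrial median minus the nuclear median in the PLK1i library was 0.27 for complex I, 0.25 for complex III, 0.18 for complex IV and 0.26 for complex V. Every nuclear member of these complexes lay below the mitochondrial median of its complex, 37 of 37, 10 of 10, 10 of 10 and 17 of 17. In sh-METTL3 the same difference was 0.00 for complex I, -0.17 for complex III, -0.16 for complex IV and -0.10 for complex V. All 10 nuclear members of complex III lay above its mitochondrial gene there. In complex IV 7 of 10, and in complex V 13 of 17, lay above the highest mitochondrial gene, while in complex I 2 of 37 did. The share of all genes on either side of these values was not computed for either library. Nothing particular to the members is therefore read from these counts. Set directly against the PLK1i library, sh-METTL3 gave differences between the genomes of -0.22, -0.46, -0.34 and -0.35 for complexes I, III, IV and V.

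The 7 mitochondrial genes of complex I encode its membrane arm, the part that pumps protons. MT-ND5 had 59407, 96561 and 92757 reads, lowest in sh-CTL, and its change was 0.37 in sh-METTL3 (0.35 to 0.38) and 0.30 in the PLK1i library (0.29 to 0.32). It was the mitochondrial gene with the largest increase in each comparison. MT-ND6, which lies next to it on the other strand, had 5465, 5798 and 5866 reads, and after scaling it was highest in sh-CTL, with changes of -0.25 (-0.30 to -0.19) and -0.24 (-0.29 to -0.19). Whether reads were counted by strand was not stated in the sources used here. Without strand, reads of MT-ND6 and of RNA antisense to it cannot be told apart. MT-ND1 had 68038, 95047 and 99698 reads, with changes of 0.15 and 0.21, above 0 in each comparison.

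MT-ND4 had 235097, 306473 and 358029 reads, and its change was 0.05 in sh-METTL3 and 0.27 in the PLK1i library (0.26 to 0.27). MT-ND4L, which overlaps it, changed by 0.10 and 0.20, and MT-ND3 by 0.06 and 0.20. MT-ND2, with 130735, 155870 and 174201 reads, changed by -0.08 and 0.07. Only MT-ND5 in sh-METTL3, and MT-ND5 and MT-ND4 in the PLK1i library, were at least 1.2-fold higher among the 13 mitochondrial genes, and none was as far lower.

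MT-CYB, the cytochrome b of complex III, had 74609, 92621 and 109137 reads, with changes of -0.02 (-0.03 to -0.01) and 0.21 (0.19 to 0.22). Its interval lay just under 0 in sh-METTL3 and above 0 with the inhibitor. Of the complex IV core genes, MT-CO1 had 392983, 515392 and 567327 reads and changed by 0.06 and 0.19. MT-CO2 had 212941, 233716 and 282543 reads and changed by -0.20 (-0.21 to -0.19) and 0.07 (0.06 to 0.08). MT-CO3 had 268079, 335582 and 386261 reads and changed by -0.01 and 0.19. MT-CO2 thus had the lowest change of the 3 in each comparison. For the ATP synthase pair, MT-ATP6 had 166169, 206802 and 246633 reads and MT-ATP8 21872, 27336 and 31624, and their changes were -0.02 and -0.01 in sh-METTL3 and 0.23 and 0.19 in the PLK1i library. MTATP6P1, a nuclear copy of mitochondrial DNA that is no member, was listed with normalized counts of 23141, 21281 and 25366, so the split of reads between mitochondrial genes and their nuclear copies is uncertain.

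**Figure D3:**
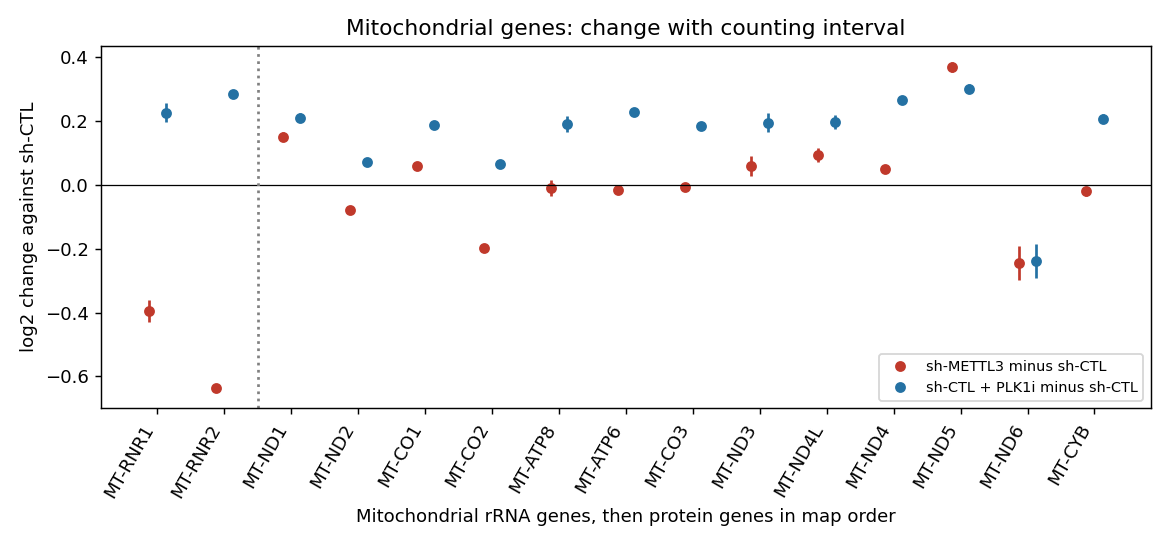
Log2 change against sh-CTL of the mitochondrial rRNA genes and the 13 protein genes in map order, for sh-METTL3 (red) and sh-CTL + PLK1i (blue), 1 library each; vertical lines are 95% counting intervals, many of them smaller than the point. The 12 plus-strand protein genes lie between 0.07 and 0.30 in the PLK1i library and between -0.20 and 0.37 in sh-METTL3, and MT-ND6 is near -0.24 in each.

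Mitochondrial genes with either kind of ending had similar medians. The 6 genes with a part stop codon, of which MT-ND1, MT-ND4 and MT-CYB are printed above, had a median of 0.02 in sh-METTL3 and 0.20 in the PLK1i library. The 7 genes with a whole last codon had medians of -0.01 and 0.19, and their range was wider because it holds MT-ND5 and MT-ND6. The 2 rRNA genes, which sit on the same strand ahead of the 12 plus-strand protein genes, had changes below all of them in sh-METTL3. MT-RNR2 had normalized counts of 159319, 102413 and 194346, a change of -0.64 (-0.65 to -0.63) in sh-METTL3 and 0.29 in the PLK1i library. MT-RNR1 had 16872, 12827 and 19746, with changes of -0.40 and 0.23. Their share of all reads was 0.403%, 0.265% and 0.487%. Poly(A) selection can remove such RNAs, but their level before selection is not known here. The part of selection in their values, and in those of the protein genes, was not tested. MALAT1, a nuclear RNA with no regular poly(A) tail, changed by -0.08 in sh-METTL3 and 0.70 in the PLK1i library.

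The 37 nuclear complex I genes showed a median log2 change of 0.06 in sh-METTL3 and -0.07 in the PLK1i library. NDUFA13, also known as GRIM-19 (chr19:19626545-19639863 in GRCh37), had normalized counts of 1627, 2529 and 1561, highest in sh-METTL3, with a change of 0.64 (0.54 to 0.73) there and -0.06 with the inhibitor. It overlaps YJEFN3 on the same strand, a gene with 479, 555 and 430 normalized counts, so some reads cannot be assigned to either. NDUFV2, a core iron-sulphur subunit of the NADH-oxidising module, had normalized counts of 4133, 5864 and 4239, with changes of 0.50 (0.45 to 0.56) and 0.04. It has a pseudogene copy, and the split of reads between them is uncertain. NDUFA8 had 2317, 2836 and 2336, with changes of 0.29 and 0.01. These 3 were the nuclear complex I genes at least 1.2-fold higher in sh-METTL3, and each was near its sh-CTL level with the inhibitor.

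NDUFA2 had normalized counts of 1670, 1351 and 1480, highest in sh-CTL, with changes of -0.31 (-0.41 to -0.20) and -0.17. NDUFA4, named as a complex I gene but since assigned to complex IV, had 4001, 3326 and 3732, with changes of -0.27 (-0.33 to -0.20) and -0.10. They were the 2 members at least 1.2-fold lower in sh-METTL3. With the inhibitor, NDUFS7, a core subunit that carries the last iron-sulphur cluster before ubiquinone, had 1528 against 1916 in sh-CTL and 2212 in sh-METTL3, with changes of -0.33 (-0.43 to -0.23) with the inhibitor and 0.21 in sh-METTL3. NDUFA9, an accessory subunit beside the ubiquinone site, had 3833, 3849 and 3129, with changes of 0.01 and -0.29 (-0.36 to -0.22). NDUFA12 had 1698, 2286 and 2432 reads, with changes of 0.10 and 0.18, the largest nuclear increase in the inhibitor library.

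The 7 nuclear core subunits of complex I form the arm that takes electrons from NADH. Their median change was 0.08 in sh-METTL3 and -0.18 in the PLK1i library. There the counting intervals of all but NDUFV2 lay below 0, against 37.2% of nuclear members and 27.8% of abundant genes. NDUFS1, the largest of the 7, had 6717, 7749 and 7213 reads, with changes of -0.13 and -0.24. The 30 accessory subunits had medians of 0.06 and -0.06.

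All 4 subunits of complex II are nuclear. SDHA, the flavoprotein that oxidises succinate, had normalized counts of 7743, 7678 and 6254, close in sh-CTL and sh-METTL3 and lowest with the inhibitor. Its change was -0.01 in sh-METTL3 and -0.31 (-0.36 to -0.26) in the PLK1i library. Close copies of SDHA exist in the genome, so part of its reads may be uncertain. SDHB, its iron-sulphur partner, had 4029, 5674 and 5416 reads, with changes of 0.16 and 0.09. The membrane anchors SDHC and SDHD changed by 0.02 and 0.12 in sh-METTL3 and by -0.14 and -0.05 with the inhibitor. The 2 catalytic subunits thus differed in direction in the PLK1i library, with intervals on either side of 0.

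The 10 nuclear complex III genes had medians of 0.15 in sh-METTL3 and -0.04 in the PLK1i library. UQCR11, a small subunit, had normalized counts of 2231, 2803 and 2122, with changes of 0.33 (0.25 to 0.41) and -0.07, and UQCR10 had the lowest change of the group in sh-METTL3, 0.02. CYC1, the cytochrome c1 that hands electrons to cytochrome c, had 5809, 7985 and 6344 reads, with changes of 0.13 (0.08 to 0.18) and -0.21 (-0.27 to -0.16). UQCRC1, a core protein, had 4815, 6765 and 5211 reads, with changes of 0.16 and -0.23. CYC1 and UQCRC1 were each highest in sh-METTL3 and lowest with the inhibitor after scaling. UQCRFS1, the Rieske iron-sulphur protein, changed by 0.04 and 0.08.

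The 10 nuclear complex IV genes had medians of 0.15 and 0.01. COX7B had normalized counts of 3608, 4457 and 3663, with changes of 0.30 (0.24 to 0.37) and 0.02. COX6A1, the broadly expressed partner of a muscle isoform that was not among the listed genes, had the lowest change in sh-METTL3, -0.04 (-0.10 to 0.02), and the highest in the PLK1i library, 0.12 (0.06 to 0.17). COX7A2 had 2680, 3875 and 3341 reads, with changes of 0.20 and -0.02, and its relative COX7A2L, an assembly factor of supercomplexes that the symbol rule places here, changed by 0.05 and 0.09. COX8A had the lowest change with the inhibitor, -0.09.

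The 17 nuclear complex V genes had medians of 0.09 and -0.05. In the catalytic F1 head, ATP5F1A, the alpha subunit, had 24455, 27432 and 28505 reads, with changes of -0.17 (-0.19 to -0.14) and -0.12, while ATP5F1B, the beta subunit, had 28833, 38428 and 33658 reads, with changes of 0.08 and -0.12. The alpha and beta genes, whose proteins alternate in the head, thus had intervals on either side of 0 in sh-METTL3, and both lay below 0 with the inhibitor. ATP5F1C, the rotating gamma subunit, changed by -0.16 and 0.03. ATP5F1D, the delta subunit, had normalized counts of 1702, 2092 and 1665, with changes of 0.30 (0.20 to 0.39) and -0.03. Over the 5 F1 genes the medians were 0.00 and -0.03, and over the 12 others 0.10 and -0.05. Of the c-ring genes, ATP5MC1 had 3374, 5059 and 3625 reads, with changes of 0.25 and -0.24 (-0.31 to -0.17), ATP5MC2 changed by 0.24 and -0.06, and ATP5MC3 by 0.06 and -0.07. ATP5MK, a small membrane subunit, had the highest change of the complex with the inhibitor, 0.17.

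**Figure D4:**
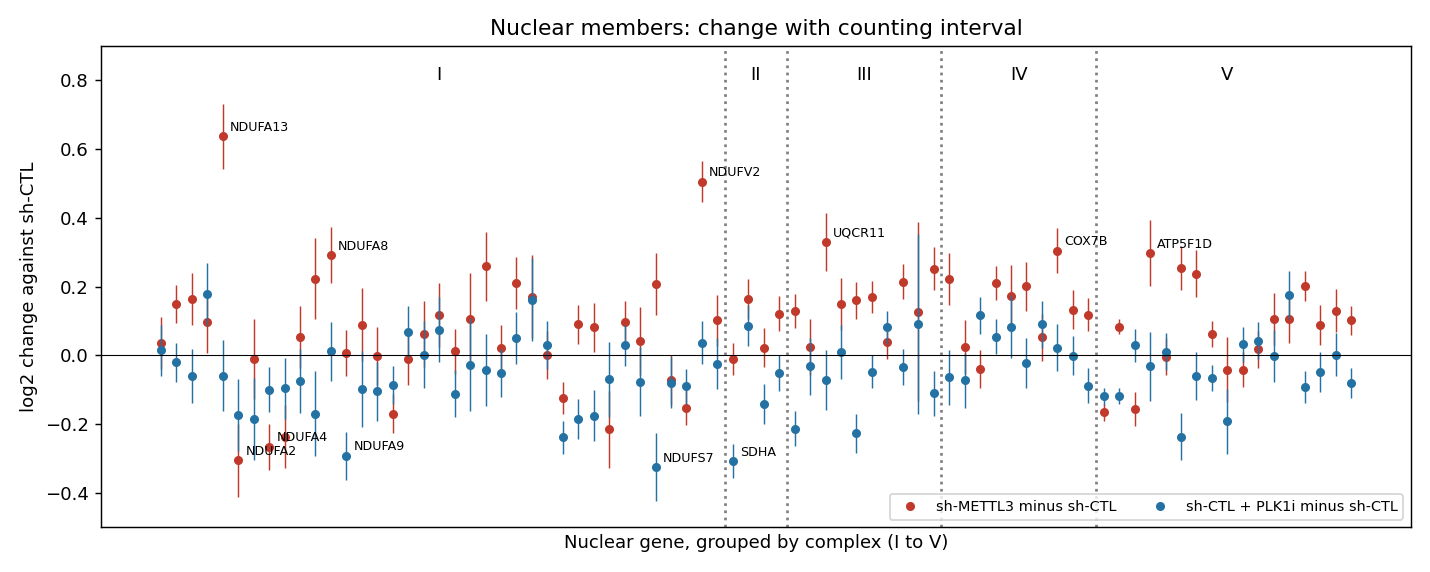
Log2 change against sh-CTL of the 78 nuclear members, grouped by complex, for sh-METTL3 (red) and sh-CTL + PLK1i (blue), 1 library each; vertical lines are 95% counting intervals, and genes at least 1.2-fold from sh-CTL are named. In sh-METTL3 6 genes are at least 0.263 higher, led by NDUFA13 at 0.64 and NDUFV2 at 0.50, and in the PLK1i library none is, while NDUFS7, SDHA and NDUFA9 lie lowest.

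Changes of nuclear members were also set beside those of their chromosomal neighbourhood. For each nuclear member, the median change of the 20 nearest genes that were no members and had a mean of at least 50 was computed. These medians ran from -0.37 to 0.39 in sh-METTL3 and from -0.21 to 0.15 in the PLK1i library. The member and its neighbours' median had the same sign for 51 of the 78 in sh-METTL3 and the opposite sign for 27, and for 45 and 33 in the PLK1i library. The same share over abundant genes was not computed, so nothing particular to the members is read from these counts. The neighbours of NDUFV2 on chromosome 18 (chr18:9102628-9134343) had a median of 0.39 beside its own 0.50, and those of NDUFA13 0.22 beside 0.64. The neighbours of NDUFA4 on chromosome 7 (chr7:10971570-10979780) had a median of -0.37 beside its own -0.27. In contrast UQCRQ, a small complex III subunit, had a change of 0.25 beside -0.12, and NDUFS1 -0.13 beside 0.09. On chromosome 7, all 4 members had a change below 0 in sh-METTL3. The counting intervals of 2 (NDUFA4 and NDUFA5) lay below 0 and those of NDUFB2 and ATP5MF lay across it. Over the 628 other genes of that chromosome that passed the same minimum mean, the median was -0.25 and 83% had a change below 0. On chromosome 19, 9 of 10 members had a change above 0, and the intervals of 8 lay above it. The median of these members was 0.22, against 0.07 over its 928 other genes, of which 62.2% had a change above 0. What part the neighbourhood had in a member's value was not tested.

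With the neighbours' median subtracted, the nuclear median was 0.10 in sh-METTL3, and 68 of 78 members were above their neighbours (87.2%), against 47.7% of abundant genes. In the PLK1i library it was -0.03, and 48 of 78 were below their neighbours (61.5%), against 48.8%. After subtraction 4 nuclear members (NDUFA13, UQCRC2, UQCRQ and ATP5MC2) were at least 1.2-fold higher and 0 lower in sh-METTL3, against 9.16% and 10.7% of abundant genes treated alike. In the PLK1i library 0 were higher and 3 (SDHA, NDUFA9 and CYC1) lower, against 6.67% and 7.27%, so neither count was above the background. NDUFA13 came to 0.41 and NDUFV2 to 0.11, while NDUFA4 came to 0.11, above its neighbours. SDHA and NDUFA9 came to -0.33 and -0.31 with the inhibitor, close to their values before subtraction, while NDUFS7 came to -0.25 and was no longer 1.2-fold lower.

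**Figure D5:**
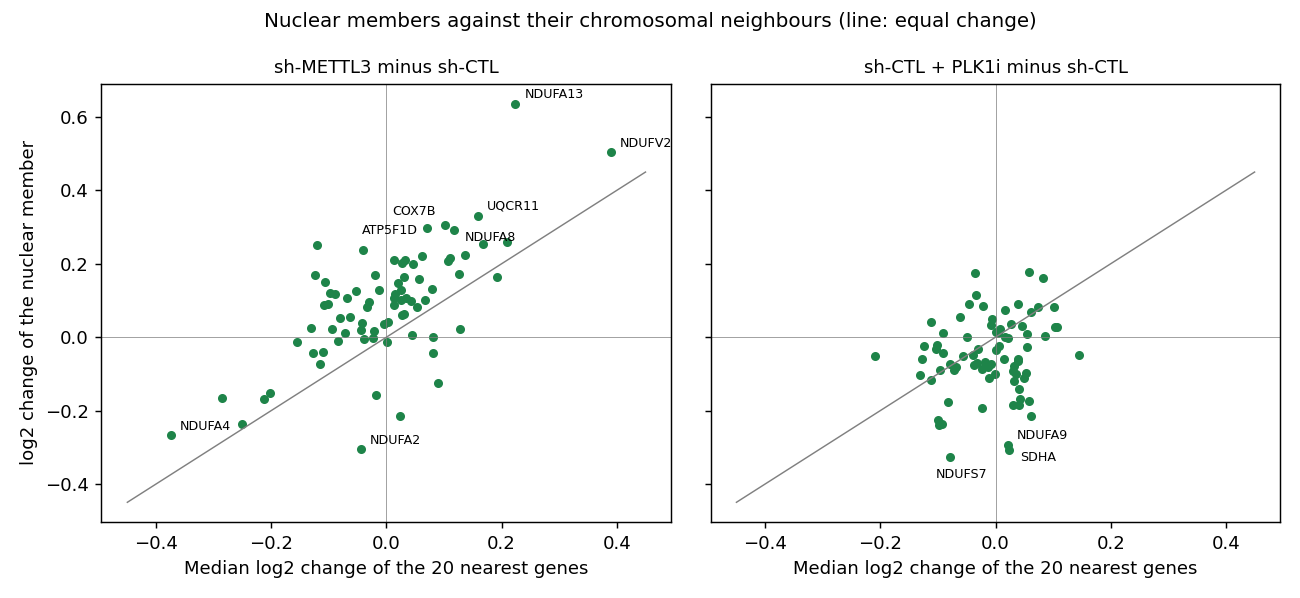
Log2 change of each nuclear member against the median change of its 20 nearest genes, for sh-METTL3 (left) and sh-CTL + PLK1i (right), 1 library per group; points are genes and the line marks equal change. In the left panel 68 of 78 points lie above the line, and the neighbours' medians span -0.37 to 0.39.

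Nuclear members with and without a promoter motif had similar changes. Those with the NRF1 letters, which include NDUFS7, SDHD and ATP5MC2 printed above, had a median of 0.12 in sh-METTL3 and -0.03 in the PLK1i library, against 0.10 and -0.06 for the 53 others. Those with the ETS letters, which include NDUFA13 and UQCR11, had 0.12 and -0.05, against 0.09 and -0.06, and those with the YY1 letters 0.13 and -0.09, against 0.09 and -0.05. ATP5PF, a peripheral stalk subunit of complex V whose YY1 window is printed above, had 3574, 4918 and 4533 reads, with changes of 0.13 (0.07 to 0.19) and 0.00.

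Genes that act on the chain without a matching symbol were taken from lists. NDUFAB1, the acyl carrier protein that is also a complex I subunit, had normalized counts of 2112, 1617 and 2130, with changes of -0.38 (-0.48 to -0.29) and 0.01. CYCS, cytochrome c itself, had 14244, 12069 and 15849, with changes of -0.24 and 0.15, and COX4I1, a complex IV subunit, changed by 0.07 and -0.01. NDUFAB1 and CYCS were lowest in sh-METTL3. CYCS lies on chromosome 7, whose median there was -0.25.

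The counts that follow are of genes at least 1.2-fold from sh-CTL and stand against the shares of all genes given above, 19.1% higher and 18.2% lower in sh-METTL3 and 13.2% and 14.4% in the PLK1i library. These lists are short, and nothing particular to a list is read from its count. Of the genes named in them, COA1, COX19, FMC1, TBRG4, FASTK and SSBP1 lie on chromosome 7. Among 17 complex I assembly factors, 2 were at least 1.2-fold higher (ECSIT, 0.37, and DMAC1, 0.29) and 1 lower (COA1, -0.30) in sh-METTL3, with a median of 0.06, and in the PLK1i library 1 was higher (NDUFAF2, 0.27), with a median of 0.03. Of 4 complex II assembly factors, 1 was higher in sh-METTL3 (SDHAF4, 0.29), with a median of 0.00. With the inhibitor SDHAF4 had 249 against 374 normalized counts in sh-CTL, a change of -0.59, and SDHAF1 223 against 164, a change of 0.44, with a median of 0.11. Of 6 complex III assembly factors, 1 was higher in sh-METTL3 (UQCC2, 0.31), with a median of 0.01. None passed with the inhibitor, where LYRM7 had the largest change (-0.17) and the median was -0.06. Of 24 complex IV assembly factors, 4 were higher (COX14, HIGD1A, COX15 and COX20) and 4 lower (COX17, PET117, SURF1 and COX19) in sh-METTL3, with a median of 0.02. These shares, 16.7% each way, were near those of all genes and above those of abundant genes, 9.72% higher and 13.3% lower. COX17, a copper carrier to cytochrome oxidase, had normalized counts of 436, 274 and 454, a change of -0.67 (-0.89 to -0.44) in sh-METTL3. None of the 24 passed in the PLK1i library, where the median was 0.04 and COX15 had the largest change (-0.24).

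Of 7 complex V assembly and regulatory genes, 2 were higher (DMAC2L, 0.44, and FMC1, 0.29) and 1 lower (TMEM242, -0.44) in sh-METTL3, with a median of 0.02. With the inhibitor 1 was lower (FMC1, -0.56), with a median of -0.14. Of 9 mitochondrial transcription genes, 1 was higher (MTERF3, 0.37) and 1 lower in sh-METTL3, with a median of 0.04, and none passed with the inhibitor, where MTERF4 had the largest change (-0.24) and the median was -0.03. TFAM, which packages mitochondrial DNA and starts its transcription, was the lower gene, with normalized counts of 5207, 3709 and 5560, a change of -0.49 (-0.55 to -0.43) in sh-METTL3 and 0.09 in the PLK1i library. POLRMT, the mitochondrial RNA polymerase, changed by -0.01 and -0.02.

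Of 20 mitochondrial RNA processing and decay genes, 0 were higher and 2 lower in sh-METTL3 (TBRG4, -0.43, and FASTK, -0.30, both on chromosome 7 with its median of -0.25), with a median of -0.07, and none passed with the inhibitor, where FASTKD5 had the largest change (0.23) and the median was 0.06. LRPPRC, which with SLIRP stabilises mitochondrial mRNA, had normalized counts of 21170, 21321 and 18520, with changes of 0.01 and -0.19 (-0.22 to -0.16). Of 10 mitochondrial DNA replication genes, 1 was lower in sh-METTL3 (SSBP1, -0.27, about the median of its chromosome), with a median of -0.13, and none passed with the inhibitor, where MGME1 had the largest change (0.26) and the median was 0.04. Of 7 nuclear regulators, GABPB1 was lower in sh-METTL3 (-0.28) and PPRC1, a coactivator of the PGC-1 family, higher with the inhibitor (0.27), with medians of -0.07 and -0.04.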

How the data were processed

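The authors deposited 1 table of log2 values for 14949 genes in 3 libraries, made with a stranded poly(A) kit. The submitters' processing notes name FastQC 0.11.9, STAR 2.7.10, RSEM 1.3.3 and hg19, without role or order, and the scaling was not given in the sources used here. The deposited log2 values followed log2(scaled read count + 4). One read was worth 1.17, 0.927 and 0.921 in the 3 libraries, and division gave whole reads: 100% of values above 0 and under 2000 reads lay within 0.1 of a whole number. The same scale came from medians of ratios of the recovered reads.

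Changes were differences of log2(normalized count + 1). With 1 library per group no test was run. Counting intervals are exact Clopper-Pearson intervals of reads at 95.0%, and cover counting error only, since amplified reads are not independent molecules. The floor of 3 reads was 0.0801, 0.0639 and 0.0629 CPM, and 0 members were at it. Lengths and positions came from GENCODE release 44 mapped to GRCh37. Alternatives were other scalings, pseudocounts, a minimum mean, a GC and length trend and member sets. Members and lists were chosen with earlier results of these data known. Genes named were all mitochondrial members, SDHA to SDHD, CYC1, members past 1.2-fold, the extreme nuclear members of each complex and isoforms, and of each list the largest change. NDUFAB1, CYCS, COX4I1, LRPPRC, POLRMT, UQCRFS1, UQCRB, NDUFA5, NDUFS1, ATP5F1B, ATP5F1C, UQCRC2, UQCRQ, NDUFB2, ATP5MF, ATP5PF, MTATP6P1 and further list genes past 1.2-fold were added for their role or level, after values were seen. Calculations used Python 3.11.15, NumPy 2.4.6, pandas 2.3.3, SciPy 1.17.1 and Matplotlib 3.10.9, and scripts were tested on simulated data.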

Additional observations from a re-analysis of the deposited data

How the results depend on the processing

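Of 190 values recomputed over 16 results and 12 settings, 179 were counted as unchanged. The limits of a median were the medians of the ends of its genes' counting intervals. Those of a difference between genomes were built from these ends, and neither kind is itself a counting interval. A count had no limits and was judged by its ratio to the reported count. A reversal was counted only where the limits lay off 0, and 0 were found. Some values could not move. Medians of ratios gave the deposited scale, and the minimum mean removed no member. A change of scale moves all genes nearly alike, so it barely touches differences between genomes. Signs near 0 did change within limits. In sh-METTL3 the mitochondrial median was 0.0124 under upper-quartile scaling, and the complex I difference was 0.0014 with the GC and length trend. The count of members at least 1.2-fold lower in sh-METTL3 (2 as reported) was 1 under upper-quartile scaling, total reads, total reads without mitochondrial reads, and without NDUFA4 and COX7A2L, and 0 with the nearest genes subtracted, an alternative chosen after seeing the data. The count at least 1.2-fold higher in sh-CTL + PLK1i (2 as reported) was 1 under upper-quartile scaling, total reads, the trend with GC content and transcript length, and without genes that share reads. With that trend taken out, the mitochondrial median was -0.0480 in sh-METTL3 and 0.1534 with the inhibitor, in place of -0.0072 and 0.1959. The cause was not tested. Complex V had no difference between the genomes without genes that share reads, since neither mitochondrial member was then left. No paired analysis was possible because each group held 1 library. Depth limits changes of the size reported: counting error alone left 26 of 78 nuclear intervals across 0 in sh-METTL3 and 41 with the inhibitor, and the spread between cultures is unknown.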
